A study of Mus musculus with 9 samples.

Results

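The canonical WNT pathway was followed in RNA sequencing of mouse spermatogonia through 10 genes chosen by name: the co-receptors Lrp5 and Lrp6, the SHISA family gene Shisa6, the destruction complex genes Axin2 and Apc, Ctnnb1 (beta-catenin), and the 4 TCF/LEF transcription factors Lef1, Tcf7, Tcf7l1 and Tcf7l2. All 10 were among the 23813 entries of the expression table, and 7 of them reached 1 FPKM (fragments per transcript length and library size) in at least 3 of the 9 libraries and so were tested among 11142 genes. Lrp5, Shisa6 and Axin2 stayed below 1 FPKM in every library and are described by their values. The cells came from male pups at postnatal day 6 of LT-11B6, an Id4-eGfp transgenic line on C57BL/6, so all 3 groups carried the same reporter and had been sorted as ID4-EGFP+. TSPAN8-high cells were the 1/3 of cells with the strongest antibody staining for the tetraspanin TSPAN8, and TSPAN8-low cells the 1/3 with the weakest positive staining. The all ID4-EGFP+ group was sorted without a TSPAN8 gate. Each group had 3 preparations. The labels do not say whether those of a group were from different litters, so the p-values cover differences between preparations, which may be technical.

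As background, secreted WNT proteins bind a frizzled receptor together with LRP5 or LRP6. Without that signal a cytoplasmic destruction complex, built on the scaffolds APC and AXIN, marks beta-catenin for degradation. With it, beta-catenin persists, enters the nucleus and binds TCF/LEF factors on DNA, where Axin2 is among the most widely used target genes and feeds back on the pathway. In the testis, spermatogonial stem cells are exposed to WNT proteins, and Shisa6 has been described in the mouse as a cell-autonomous brake on this signal in undifferentiated spermatogonia. ID4 marks the spermatogonia richest in stem cell activity, and TSPAN8 staining was used to subdivide them.

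The sort was visible in the transcripts. Tspan8 had 43.7, 29.6 and 28.8 FPKM in the 3 TSPAN8-high libraries, against 6.65, 10.8 and 11.8 FPKM in the TSPAN8-low libraries (log2 fold change 1.72 on the log2(FPKM + 1) scale, adjusted p = 0.00246 by limma). Id4 was also higher in TSPAN8-high cells (1.37, adjusted p = 0.00567). Libraries were alike in size as far as this could be read from the steps of low values, with relative depths of 0.856 to 1.05 times that of the first all ID4-EGFP+ library. Absolute depth is unknown. All 8 markers of germ cells and undifferentiated spermatogonia were expressed. Of these, Gfra1 and Etv5, genes of the undifferentiated state, differed between the fractions, TSPAN8-high cells being higher than TSPAN8-low cells (18.2 ± 0.837 against 6.77 ± 2.33 FPKM, adjusted p = 0.00551, and 27.1 ± 1.75 against 11.3 ± 2.68 FPKM, adjusted p = 0.0050; SD, n = 3 each), and 0 were lower. With the replicate number as a block 4 were higher (Ddx4 and Zbtb16 too) and 1 lower (Uchl1). Of all tested genes 3.41% were higher and 2.15% lower in this comparison, and 11.8% and 7.34% with the block. The 10 Sertoli cell markers, of which 5 were under 1 FPKM in every library and none was at 0 in all, summed to 44.0 to 139 FPKM in TSPAN8-high libraries, 5.12 to 77.8 in TSPAN8-low libraries and 6.48 to 62.2 in all ID4-EGFP+ libraries. The 4 markers of differentiating spermatogonia ran the other way, with 144 to 173 FPKM in TSPAN8-high, 266 to 299 in TSPAN8-low and 231 to 255 in all ID4-EGFP+ libraries. Of these 4, 3 were lower in TSPAN8-high than in TSPAN8-low cells, and all 4 with the block. The 3 tested Sertoli markers, Clu, Cst12 and Inha, carried this sum, with 60.6, 44.6 and 29.7 FPKM in the third TSPAN8-high library. The untested Sertoli markers stayed at or below 1.27 FPKM in every library. None of the 3 tested Sertoli markers passed, and all 3 were higher with the block. The leukocyte marker Cd68 was also higher only with the block (adjusted p = 0.192, 0.0384 with the block). The Sertoli sum was higher in the TSPAN8-high library within each of the 3 replicate numbers. The part of these gaps in the differences described next was not tested. In bulk libraries fewer cells of a type and less RNA per cell cannot be told apart.

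The 10 genes covered a wide span of levels that was the same in kind in every group. FPKM is per transcript length, so levels of different genes can be set side by side. Ctnnb1 led with a mean of 81.0 FPKM over the 9 libraries, followed by Tcf7 with 29.7 and Apc with 5.83 FPKM, and the ranges of these 3 did not overlap. Tcf7l2 with 2.58, Lef1 with 2.54 and Lrp6 with 2.38 FPKM formed a group whose neighbours exchanged places, each exceeding the next in 5 of 9 libraries. Tcf7l1 followed at 0.870 FPKM. Axin2 with 0.262, Lrp5 with 0.193 and Shisa6 with 0.129 FPKM were at the bottom with overlapping ranges, each above the next in 7 of 9 libraries. Within all ID4-EGFP+ cells, Ctnnb1 stood above 83.6% of tested genes and Tcf7 above 70.5%, whereas Lrp6 stood above 18.4%.

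**Figure D1:**
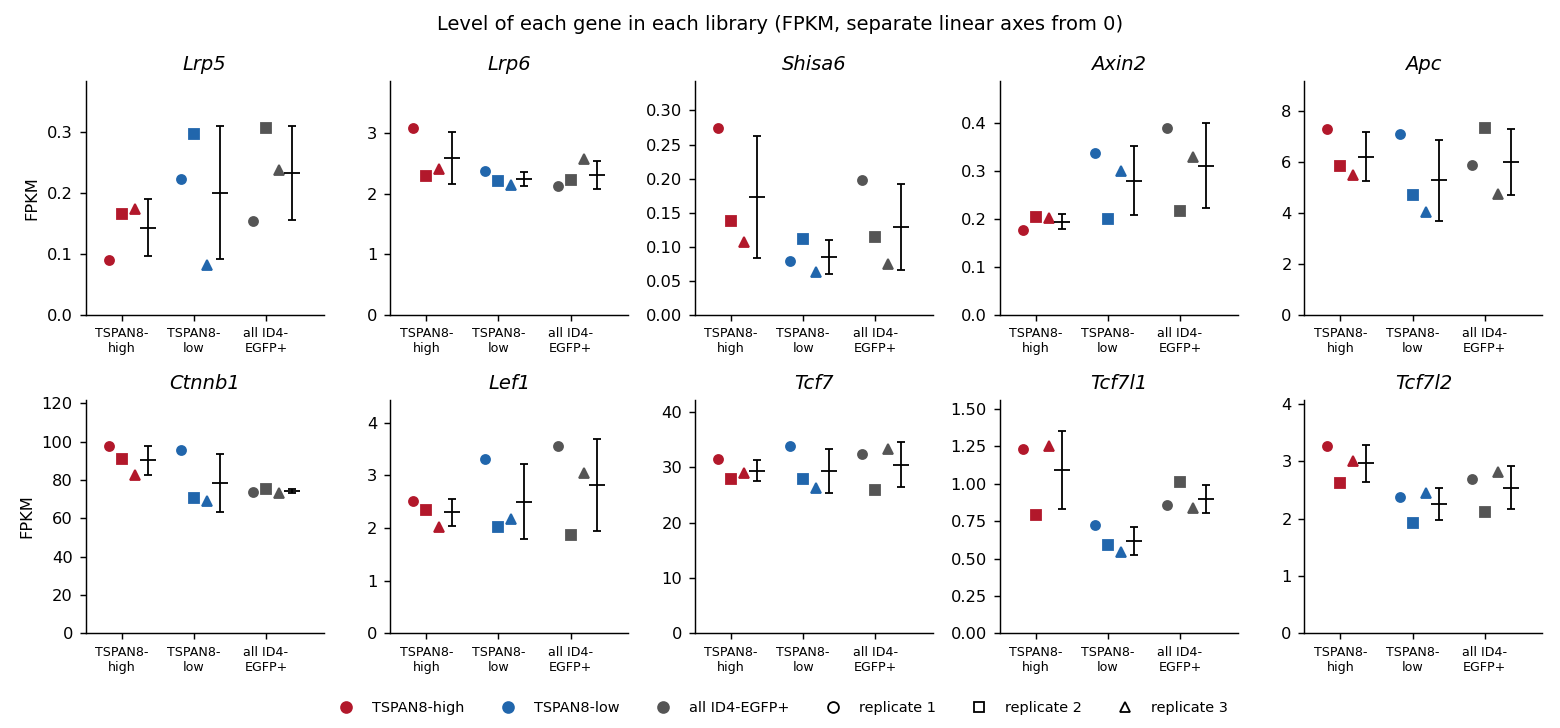
Level of each of the 10 genes in each library in FPKM, on linear axes that start at 0 and differ between panels; colours give the group, symbols the replicate number, and the black bars the mean and SD of 3 libraries. Tcf7l1 and Tcf7l2 are higher in every TSPAN8-high library than in any TSPAN8-low library, while the groups overlap in the other 8 panels for that pair.

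TSPAN8-high against TSPAN8-low cells was the main comparison, and it asked whether stronger surface staining went with another level of pathway transcripts. None of the 7 tested genes passed the threshold of 0.05 on the adjusted p in limma, in a comparison in which 619 genes, 5.56% of those tested, did so. At an unadjusted p under 0.05 there was 1 of the 7, Tcf7l1, against 22% of all genes. With the replicate number as a block it was 2 of 7, Tcf7l1 and Tcf7l2, against 34.3%. The estimates were above 0 for 6 of the 7, where those of 6301 of all 11142 tested genes were. The median log2 fold change of the 7 was 0.21 against 0.051 over all tested genes. Tcf7 is the 1 of those 6 of 7 whose estimate turned negative under each of 3 other scalings (-0.034, -0.086 and -0.054). Under these scalings the median over all tested genes was 0.00049, -0.032 and 0.00075, and that of the 7 was not computed. The 95% intervals on the FPKM + 1 scale ran between 0.708-fold (Lef1) and 1.58-fold (Tcf7l1), and 0 of 7 reached a 2-fold difference in either direction. This scale understates the change of genes near 1 FPKM: with a pseudocount of 0.1 the interval of Tcf7l1 ran between 1.08 and 2.47-fold, and it was the 1 of 7 that reached 2-fold. Over all genes the split of calls depended on scaling, with 380 higher and 239 lower as deposited, against 223 and 307 with the authors' normalized values, 255 and 360 with a common median, and 250 and 300 with quantile normalization.

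The comparisons with unfractionated cells gave the same count. TSPAN8-high against all ID4-EGFP+ had 0 of 7 genes past the threshold, where 0.144% of all genes passed, and 0 of 7 at an unadjusted p under 0.05, where 9.74% did (1 of 7, Ctnnb1, against 18.7% with the block). TSPAN8-low against all ID4-EGFP+ had 0 of 7, where 0% of all genes passed, and again 0 of 7 at an unadjusted p under 0.05 against 8.17% (0 of 7 against 19% with the block). The intervals on the FPKM + 1 scale ran between 0.653-fold (Lef1) and 1.53-fold (Ctnnb1) in TSPAN8-high cells, and between 0.654-fold (Apc) and 1.32-fold (Ctnnb1) in TSPAN8-low cells. With a pseudocount of 0.1 the lower limit of Tcf7l1 in TSPAN8-low cells was 0.473-fold. These 2 comparisons share their all ID4-EGFP+ libraries, and each shares a fraction with the main comparison.

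**Figure D2:**
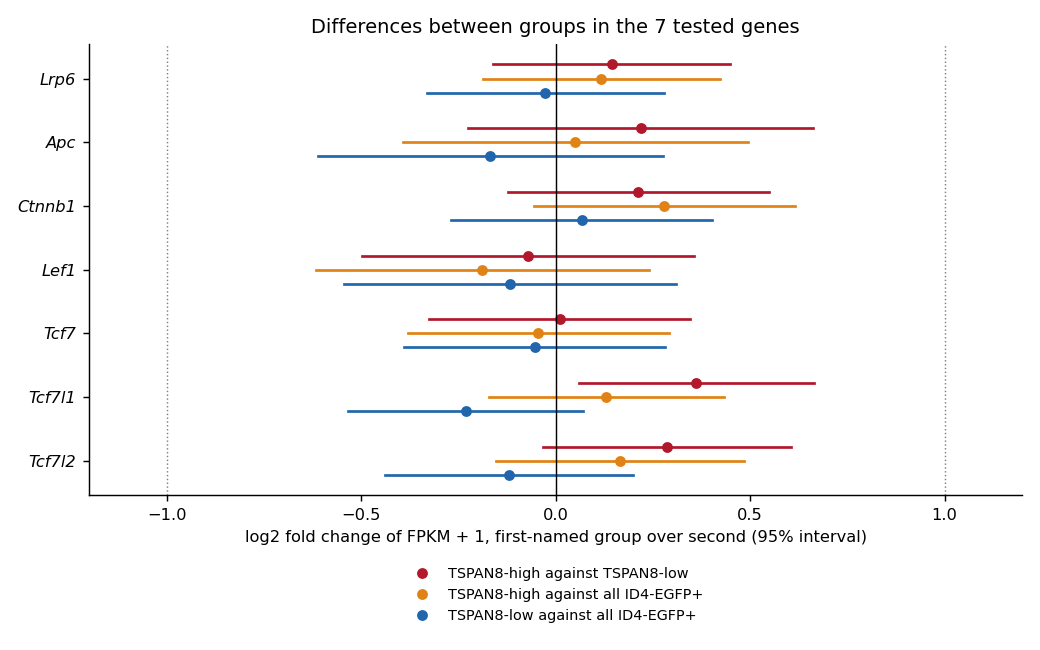
Log2 fold change of FPKM + 1 (points) with its 95% interval from limma (lines) for the 7 tested genes in the 3 comparisons, first-named group over the second; the dotted lines mark a 2-fold difference. On this scale every interval lies inside the dotted lines, and the interval of Tcf7l1 in TSPAN8-high against TSPAN8-low cells is the 1 that leaves out 0 before adjustment.

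Among the co-receptors, Lrp6 carried most of the transcript. Lrp6 had 3.09, 2.29 and 2.41 FPKM in TSPAN8-high libraries, 2.37, 2.22 and 2.14 in TSPAN8-low libraries, and 2.13, 2.22 and 2.57 in all ID4-EGFP+ libraries. The first TSPAN8-high library was the highest of the 9 and the groups overlapped (log2 fold change 0.14, SE 0.14, adjusted p = 0.582 for TSPAN8-high against TSPAN8-low). Lrp5, the paralogous co-receptor, had 0.0896, 0.166 and 0.174 FPKM in TSPAN8-high libraries, 0.223, 0.298 and 0.0817 in TSPAN8-low libraries, and 0.155, 0.308 and 0.238 in all ID4-EGFP+ libraries. The third TSPAN8-low library was the lowest and the groups overlapped, and an exact two-sided permutation test of TSPAN8-high against TSPAN8-low gave p = 0.5, where 3 libraries against 3 cannot go below 0.1. Lrp6 exceeded Lrp5 by 7.21 to 34.5 times in the 9 libraries.

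Shisa6 was barely detected. It had 0.275, 0.137 and 0.107 FPKM in TSPAN8-high libraries, 0.0796, 0.111 and 0.0627 in TSPAN8-low libraries, and 0.198, 0.114 and 0.0744 in all ID4-EGFP+ libraries. Its mean was 2.04 times as high in TSPAN8-high as in TSPAN8-low cells, but the groups overlapped, and the first TSPAN8-high library alone set most of that ratio: within replicate numbers 1, 2 and 3 the ratio was 3.45, 1.23 and 1.70. The exact two-sided permutation p was 0.2, where 3 libraries against 3 cannot go below 0.1.

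The 2 destruction complex genes sat far apart. Axin2, the feedback scaffold and target gene, had 0.176, 0.204 and 0.202 FPKM in TSPAN8-high libraries, 0.338, 0.200 and 0.301 in TSPAN8-low libraries, and 0.390, 0.216 and 0.329 in all ID4-EGFP+ libraries. Every TSPAN8-high library was below every all ID4-EGFP+ library, with a mean of 0.194 ± 0.0158 against 0.311 ± 0.0885 FPKM (SD, n = 3 each), and the exact two-sided permutation p was 0.1, the smallest that this design allows. Of all tested genes, 8.34% were lower without overlap in that comparison. TSPAN8-high and TSPAN8-low overlapped through the second TSPAN8-low library (exact permutation p = 0.3). A limma fit without the filter on low values gave Axin2 an adjusted p of 0.676 for TSPAN8-high against all ID4-EGFP+ and 0.532 for TSPAN8-high against TSPAN8-low. The paralog Axin1, which serves as the constitutive scaffold and was added for this comparison after values had been seen, had 4.43 to 6.19 FPKM, or 14.7 to 29.4 times the level of Axin2 in the same library. Apc, the large scaffold, had 7.31, 5.84 and 5.48 FPKM in TSPAN8-high libraries, 7.10, 4.73 and 4.04 in TSPAN8-low libraries, and 5.89, 7.36 and 4.77 in all ID4-EGFP+ libraries. The groups overlapped, and the log2 fold change of TSPAN8-high over TSPAN8-low was 0.22 (SE 0.20, adjusted p = 0.563).

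Ctnnb1, which encodes beta-catenin itself, is also a component of adherens junctions. It had 97.5, 91.0 and 82.5 FPKM in TSPAN8-high libraries, 95.8, 70.6 and 69.1 in TSPAN8-low libraries, and 73.7, 75.4 and 73.2 in all ID4-EGFP+ libraries. The 3 unfractionated libraries had an SD of 1.17 FPKM, and all 3 TSPAN8-high libraries were above them, as 6.79% of tested genes were. The first TSPAN8-low library was close to the TSPAN8-high ones, so the fractions overlapped. The log2 fold change was 0.28 for TSPAN8-high against all ID4-EGFP+ (SE 0.15, adjusted p = 0.627) and 0.21 against TSPAN8-low (SE 0.15, adjusted p = 0.447).

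Of the TCF/LEF genes, Tcf7, which encodes TCF1, made up most of the summed transcript. It had 31.5, 27.8 and 28.9 FPKM in TSPAN8-high libraries, 33.8, 27.9 and 26.2 in TSPAN8-low libraries, and 32.4, 25.8 and 33.3 in all ID4-EGFP+ libraries. The fractions averaged 29.4 ± 1.89 and 29.3 ± 3.97 FPKM (SD, n = 3 each), with a 95% interval of 0.798 to 1.27-fold (adjusted p = 0.976). Lef1, which is itself a target of the pathway in many tissues, had 2.51, 2.35 and 2.03 FPKM in TSPAN8-high libraries, 3.32, 2.02 and 2.17 in TSPAN8-low libraries, and 3.55, 1.86 and 3.04 in all ID4-EGFP+ libraries. The spread of Lef1 lay within the TSPAN8-low and unfractionated groups rather than between groups (log2 fold change of TSPAN8-high over TSPAN8-low -0.071, SE 0.20, adjusted p = 0.864).

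The 2 remaining family members separated the fractions without overlap. Tcf7l1, which encodes TCF3, mostly a repressor of WNT targets, had 1.23, 0.788 and 1.25 FPKM in TSPAN8-high libraries, 0.724, 0.594 and 0.542 in TSPAN8-low libraries, and 0.856, 1.01 and 0.838 in all ID4-EGFP+ libraries. All 3 TSPAN8-high libraries were above all 3 TSPAN8-low libraries, and all 3 TSPAN8-low libraries were below the unfractionated ones. The log2 fold change of TSPAN8-high over TSPAN8-low was 0.36 (SE 0.14, adjusted p = 0.152), and the ratio of mean FPKM was 1.76. Tcf7l1 reached 1 FPKM in 3 libraries, of which 2 were TSPAN8-high, so its passing of the filter leaned on the group in which it was highest. Tcf7l2, which encodes TCF4 and can activate or repress, had 3.26, 2.62 and 3.01 FPKM in TSPAN8-high libraries, 2.38, 1.93 and 2.44 in TSPAN8-low libraries, and 2.70, 2.11 and 2.81 in all ID4-EGFP+ libraries. Here too the fractions did not overlap, while the unfractionated libraries overlapped both (log2 fold change of TSPAN8-high over TSPAN8-low 0.29, SE 0.15, adjusted p = 0.276). These 2 of 7 tested genes stood beside 15.9% of all tested genes that were higher without overlap in TSPAN8-high cells. In TSPAN8-low against all ID4-EGFP+, Tcf7l1 was the 1 of 7 that was lower without overlap, as 10.8% of all tested genes were (log2 fold change -0.23, SE 0.14, adjusted p = 0.646).

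Expressed as shares of the summed TCF/LEF FPKM of a library, the family showed the same order in each group for its leading member. The sum was 30.8 to 40.2 FPKM over the 9 libraries, and Tcf7 took 81.8% to 86.0% of it. Tcf7l1 took 3.04% ± 0.62 of the sum in TSPAN8-high, 1.79% ± 0.053 in TSPAN8-low and 2.51% ± 0.661 in all ID4-EGFP+ libraries (SD, n = 3 each). Tcf7l2 took 8.27% ± 0.407, 6.55% ± 1.08 and 6.90% ± 0.105 in the same groups. Its shares in TSPAN8-high libraries were above those in the other 6 only by a near tie. The second TSPAN8-high library had 7.81% and the third TSPAN8-low library 7.79%. Lef1 took 6.43% ± 0.623 in TSPAN8-high, 7.13% ± 1.03 in TSPAN8-low and 7.55% ± 1.48 in all ID4-EGFP+ libraries, with overlap. Set against its least abundant relative, Tcf7 exceeded Tcf7l1 by 28.0 ± 6.43 times in TSPAN8-high, 47.3 ± 0.916 times in TSPAN8-low and 34.4 ± 7.66 times in all ID4-EGFP+ libraries. Shares within a library do not change when all its values are multiplied by a common factor. They were not computed under quantile normalization or from the authors' normalized values. They show unequal levels and not which gene changed.

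**Figure D3:**
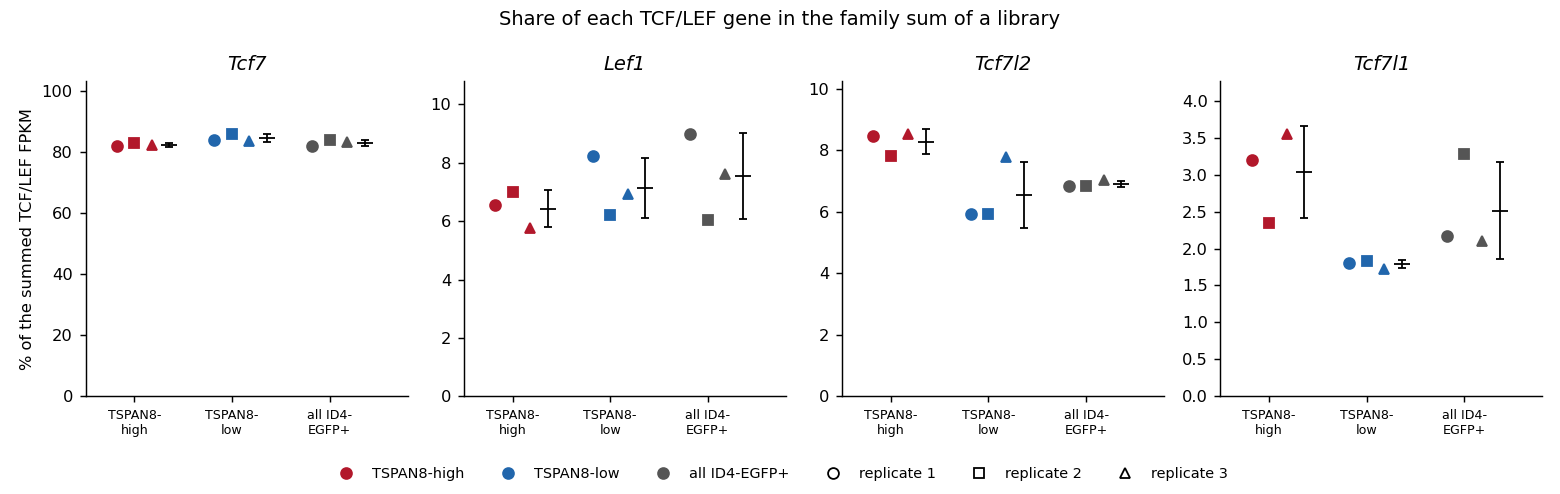
Share of each TCF/LEF gene in the summed FPKM of the 4 genes, in percent, for each library; axes start at 0 and differ between panels, and the black bars give the mean and SD of 3 libraries. The share of Tcf7l1 lies between 2.35% and 3.56% in TSPAN8-high libraries and between 1.73% and 1.83% in TSPAN8-low libraries.

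Promoter sequence is shown for Axin2, the standard readout of the pathway, and for the 2 searched windows that hold a TCF/LEF motif. The windows are the 250 bases before an annotated start, from RefSeq on GRCm38.p6, while the expression files use mm9. The search covered 12 windows for 6 of the genes. Apc, Lrp5, Lrp6 and Shisa6 were not searched, so matches before their starts are unknown. The motif was CTTTG followed by 2 letters that are each A or T, on either strand, and 14.8% of 32851 windows of this length held at least 1. The Axin2 window lies at chr11:108920099-108920348 on the plus strand and has 69.2% GC with 24 CpG dinucleotides and no match. The Lef1 window lies at chr3:131156044-131156293 on the plus strand, before 1 of 4 annotated starts of the gene. The Tcf7l2 window lies at chr19:55895071-55895320 on the plus strand, before 1 of 2 annotated starts. Capitals mark the match, which begins 147 bases before the start in Lef1, where the printed strand carries the reverse complement, and 14 bases before it in Tcf7l2.
Axin2: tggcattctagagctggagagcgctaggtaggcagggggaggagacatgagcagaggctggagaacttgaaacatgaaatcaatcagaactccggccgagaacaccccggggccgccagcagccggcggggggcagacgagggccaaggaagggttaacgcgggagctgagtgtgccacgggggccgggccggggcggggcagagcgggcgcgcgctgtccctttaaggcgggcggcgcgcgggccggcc
Lef1: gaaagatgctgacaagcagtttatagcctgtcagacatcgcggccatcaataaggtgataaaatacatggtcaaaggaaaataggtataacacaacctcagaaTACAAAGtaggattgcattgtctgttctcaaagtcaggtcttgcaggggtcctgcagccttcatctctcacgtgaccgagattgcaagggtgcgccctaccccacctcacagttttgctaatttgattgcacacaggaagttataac
Tcf7l2: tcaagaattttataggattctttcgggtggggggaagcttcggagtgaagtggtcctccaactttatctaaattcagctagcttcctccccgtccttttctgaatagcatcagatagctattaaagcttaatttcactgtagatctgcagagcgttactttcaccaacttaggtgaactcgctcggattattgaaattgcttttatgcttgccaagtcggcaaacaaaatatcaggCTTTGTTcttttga
The other 3 windows of Lef1, the other window of Tcf7l2 and the windows of Ctnnb1, Tcf7 and Tcf7l1 had no match. Gene-level FPKM does not separate transcripts from different starts, so the values above cannot be assigned to a window.

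The 10 genes did not vary as a block across libraries. Over the 9 libraries, the highest Pearson correlations of log2(FPKM + 1) were between Lef1 and Tcf7 (0.88), Axin2 and Lef1 (0.80), and Apc and Ctnnb1 (0.71). All 3 remained after group means were taken out (0.90, 0.85 and 0.84), so these pairs moved together among preparations of the same kind. The lowest was between Lrp5 and Tcf7l2 (-0.69). Pairs of values come from the same libraries and share their depth and preparation, and these figures are descriptions. The genes most like Axin2 over the 9 libraries were 6230400D17Rik (Pearson r 0.97), Ext2 (0.94) and Prr3 (0.94), those most like Lef1 were Ahr (0.93), Phactr4 (0.91) and Ttc13 (0.91), and those most like Shisa6 were Daam1 (0.92), 9330179D12Rik (0.92) and 4930430J02Rik (0.91).

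The rest of the pathway was read from a list of 126 further genes in 11 roles, of which 125 were in the table and 68 were tested. In TSPAN8-high against TSPAN8-low cells 5 of the 68 rose and 0 fell, in a comparison in which 3.41% of all genes were higher and 2.15% lower, and the median log2 fold change was 0.12 against 0.051 over all genes. At an unadjusted p under 0.05 there were 22 of 68, where 22% of all genes were (27 of 68 and 34.3% with the block). With the replicate number as a block, under which 19.1% of all genes passed (11.8% higher and 7.34% lower), 11 rose and 4 fell. Without the filter on low values 0 of the 5 passed, and under each of the 3 other scalings Dkkl1 and Cdh1 did not. Against all ID4-EGFP+ cells 0 of 68 passed for either fraction in limma, with 10 at an unadjusted p under 0.05 for TSPAN8-high, where 9.74% of all genes were, and 3 for TSPAN8-low, where 8.17% were. With the block these were 16 (18.7% of all genes) and 10 (19%), and the block gave 1 higher (Rspo2) and 2 lower (Lgr5 and Tle6) for TSPAN8-high, where it called 1.23% of all genes higher and 1.86% lower (3.09% together), and 0 for TSPAN8-low, where it called 0.0449%. Leaving out libraries moved the count of rises to between 0 and 5, and leaving a replicate number out of all groups left Rspo2 as the 1 rise without number 1 or 3 and 0 rises without number 2.

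**Figure D4:**
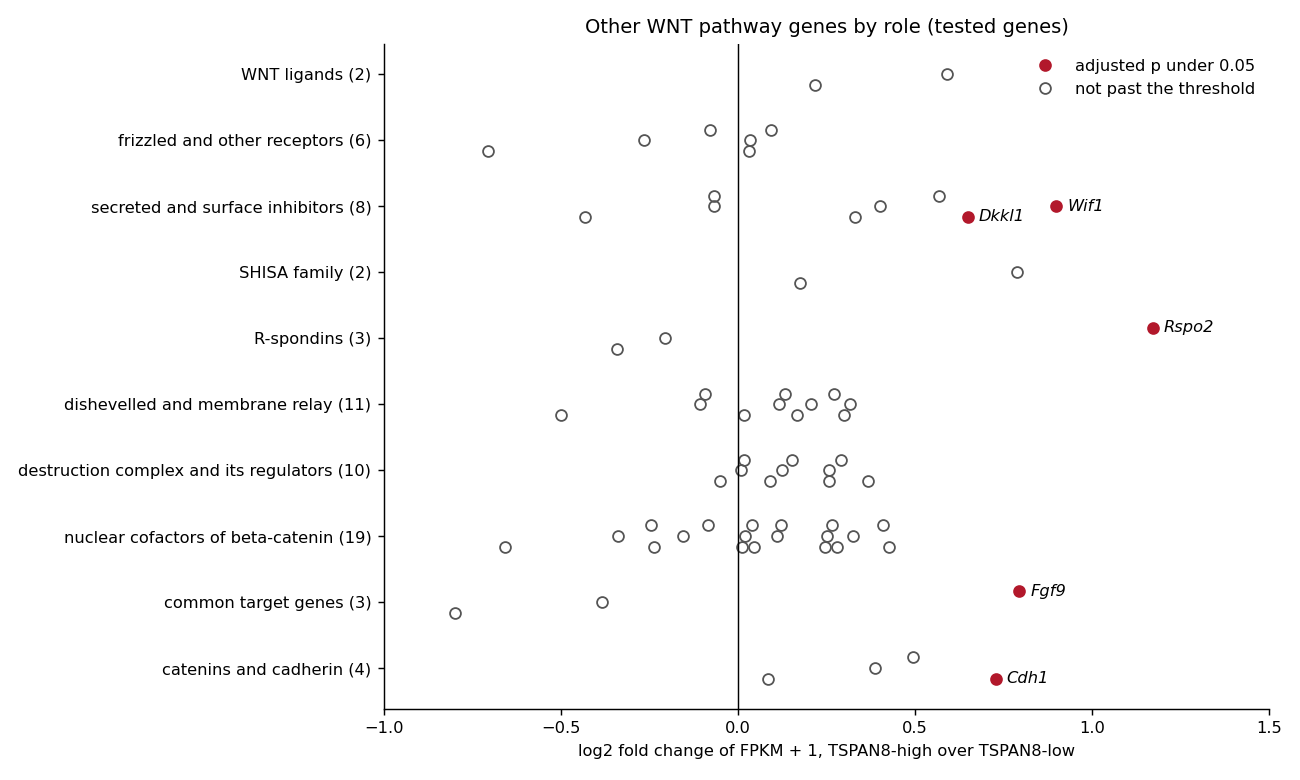
Log2 fold change of FPKM + 1, TSPAN8-high over TSPAN8-low, of the 68 other tested WNT pathway genes by role, with the number tested in parentheses; filled red points passed an adjusted p under 0.05 in limma and open points did not. The 5 filled points, Rspo2, Wif1, Fgf9, Cdh1 and Dkkl1, all lie to the right of 0.

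At the level of ligands and receptors, few genes were expressed. Of 19 WNT ligands, 17 were below 1 FPKM in every library, as were 8 of 10 frizzled receptors. Wnt1, Wnt8a, Wnt10b, Dkk4 and Sox17, named after their values were seen, were listed at 0 throughout. The 2 tested ligands did not pass: Wnt5b had a log2 fold change of 0.59 (adjusted p = 0.158, 0.0381 with the block) and Wnt3 of 0.22 (adjusted p = 0.556). Neither gene for ligand release, Porcn or Wls, both named after their values were seen, passed the filter. Both were near it, with means over the 9 libraries of 0.932 and 0.792 FPKM and highest values of 1.58 and 1.74 FPKM. Lgr5, an R-spondin receptor and stem cell marker in several epithelia, had 0.686, 0.629 and 1.16 FPKM in TSPAN8-high libraries and 1.47, 2.88 and 1.70 in TSPAN8-low libraries. Lgr5 missed the threshold (log2 fold change -0.71, SE 0.20, adjusted p = 0.0545). It passed with the block (0.0171), where 7.34% of all genes were lower, and under 2 of 3 other scalings.

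R-spondins are secreted amplifiers that protect WNT receptors from turnover. Of 3 tested members 1 rose and 0 fell, where 3.41% of all genes were higher and 2.15% lower. Rspo2 had 22.5, 19.4 and 16.3 FPKM in TSPAN8-high libraries, 5.78, 8.89 and 9.83 in TSPAN8-low libraries, and 10.8, 10.9 and 9.56 in all ID4-EGFP+ libraries. Each TSPAN8-high library was above the other 6. Of all tested genes, 15.9% were higher without overlap against TSPAN8-low and 6.79% against all ID4-EGFP+ libraries. Rspo2 rose against TSPAN8-low cells by 1.17 on the log2 scale (SE 0.19, adjusted p = 0.00737). It was not past the threshold when replicate number 2 was left out of all groups (adjusted p = 0.101), and it stayed past it without any other single library or number. Rspo4 had 10.9, 10.5 and 10.7 FPKM in TSPAN8-high and 13.7, 14.3 and 13.6 in TSPAN8-low libraries, and did not pass (log2 fold change -0.34, adjusted p = 0.163). Rspo1 had a log2 fold change of -0.21 (adjusted p = 0.513).

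Among genes listed as secreted and surface inhibitors 2 of 8 tested genes rose and 0 fell, where 3.41% of all genes were higher and 2.15% lower. Wif1, which binds WNT proteins outside the cell, had 2.89, 2.84 and 3.74 FPKM in TSPAN8-high libraries and 0.832, 1.84 and 1.10 in TSPAN8-low libraries. The groups did not overlap, and 15.9% of all tested genes were likewise higher without overlap (log2 fold change of Wif1 0.90, SE 0.18, adjusted p = 0.0164). Dkkl1, a Dickkopf-like gene of germ cells, had 10.4, 7.53 and 8.86 FPKM in TSPAN8-high libraries and 5.15, 5.01 and 5.70 in TSPAN8-low libraries (log2 fold change 0.65, SE 0.16, adjusted p = 0.0345). Whether Dkkl1 acts as a WNT inhibitor was not tested. Sfrp1, a secreted WNT-binding inhibitor, did not pass without the block (log2 fold change 0.57, adjusted p = 0.0648, 0.0289 with the block). Sfrp2 did not either (0.40, adjusted p = 0.216, 0.0314 with the block). Znrf3 had the opposite sign and also passed only with the block (-0.43, adjusted p = 0.147, 0.0376 with the block). With the block 4 of the 8 were higher and 1 lower, where 11.8% of all genes were higher and 7.34% lower. The call of Wif1 was lost without the third TSPAN8-high or the first TSPAN8-low library, and that of Dkkl1 without any 1 of the 6 TSPAN8-sorted libraries.

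In the cytoplasmic and nuclear machinery that the 10 genes belong to, none of 11 tested genes of dishevelled and the membrane relay, 0 of 10 of the destruction complex and its regulators and 0 of 19 nuclear cofactors of beta-catenin passed in limma, where 5.56% of all genes did. There were 1, 1 and 4 of them at an unadjusted p under 0.05, where 22% of all genes were. With the block, Tnks2, a tankyrase that promotes turnover of AXIN, was higher (log2 fold change 0.37, adjusted p = 0.0495) and Pygo1, a nuclear cofactor, was lower (-0.66, adjusted p = 0.0165). These were 0 of 11, 1 of 10 and 1 of 19 genes in the 3 roles, where the block called 11.8% of all genes higher and 7.34% lower. In the SHISA family, Shisa5 had 19.9, 15.2 and 21.0 FPKM in TSPAN8-high libraries and 7.11, 11.0 and 13.9 in TSPAN8-low libraries, a log2 fold change of 0.79 that did not pass (adjusted p = 0.0805, 0.013 with the block).

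Of 8 genes listed as common targets 3 were tested, 1 rose and 0 fell, beside the same 3.41% and 2.15% of all genes. Fgf9, a growth factor, had 3.05, 2.75 and 2.01 FPKM in TSPAN8-high libraries and 0.764, 1.13 and 1.33 in TSPAN8-low libraries (log2 fold change 0.79, SE 0.17, adjusted p = 0.0241). Ccnd1, which encodes cyclin D1, had the opposite sign and did not pass (log2 fold change -0.38, adjusted p = 0.228, 0.0336 with the block), nor did Id2 (-0.80, adjusted p = 0.192). The call of Fgf9 was lost without the first or second TSPAN8-high or the first or second TSPAN8-low library. Among catenins and cadherins, the partners of beta-catenin at the membrane, Cdh1 (E-cadherin) had 3.38, 2.44 and 2.63 FPKM in TSPAN8-high libraries and 1.00, 1.73 and 1.21 in TSPAN8-low libraries. Cdh1 rose by 0.73 on the log2 scale (SE 0.19, adjusted p = 0.0496), next to the threshold, and the call was lost without any 1 of the 6 TSPAN8-sorted libraries or without replicate 2 or 3 of all ID4-EGFP+. Ctnna1, which encodes alpha-catenin, had a log2 fold change of 0.49 (adjusted p = 0.077, 0.0206 with the block). The Sertoli marker sums given above, carried by Clu, Cst12 and Inha, were higher in TSPAN8-high libraries as well. Their part in these 5 rises was not tested.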

How the data were processed

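RNA was measured in 9 libraries made with SMART-Seq v4 and Nextera XT per the labels' protocols, which do not mark strand, so antisense transcripts were not separated. The authors deposited FPKM per gene. Per the submitters' processing notes, FastQC, TopHat2 2.0.12, Bowtie2 2.2.3.0, Cufflinks and the build mm9 were used, with the Cufflinks version and annotation not stated there. A second table that the authors deposited, of normalized signal made by an unstated method, served as an alternative. From FPKM, 262 symbols on 768 entries were left out as ambiguous. Genes with at least 1 FPKM in at least 3 of 9 libraries were tested on log2(FPKM + 1) with limma 3.58.1 (R 4.3.3; 3 groups in 1 fit, eBayes with trend, two-sided), with Benjamini-Hochberg adjustment over 11142 genes and a threshold of 0.05; the script was tested on simulated data. Figures and summaries used Python 3.11.15 and matplotlib 3.10.9. The labels do not say whether libraries with the same replicate number were prepared together. Deviations from group means correlated at 0.265 to 0.481 in the 9 pairs with the same number and at -0.456 to 0.277 in the 18 others. These ranges overlapped, and deviations within a group cancel out, so the same-number and other pairs are not independent. A fit with the number as a block is therefore an alternative, given where it changes a call. Alternatives were other pseudocounts, filters, scalings and left-out libraries. The members and lists were chosen with earlier results of these data known. Of the longer list, the up to 3 genes per role with the smallest p and every gene past the threshold were picked for naming. The text names only part of those picked. Genes named after their values were seen are marked as such. For Shisa6, Axin2 and Lef1 the text names the 3 tested genes with the highest correlation over the libraries.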

Additional observations from a re-analysis of the deposited data

How the results depend on the processing

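None of the 438 values recomputed for the 10 genes over 21 alternatives, where a setting kept the gene, passed the threshold. The smallest adjusted p was 0.0952, for Tcf7l1 with the replicate block. The sign turned in 31 of the 438, 23 of them by leaving out libraries, and each such estimate was small. Tcf7 in TSPAN8-high against TSPAN8-low was -0.034 with the authors' normalized values, -0.086 with a common median and -0.054 with quantile normalization. In TSPAN8-low against all ID4-EGFP+, Lrp6 was 0.087, 0.042 and 0.054 under the same scalings and Tcf7 was 0.021 and 0.042 under the first 2. Leaving out libraries gave the following ranges of log2 fold change. In TSPAN8-high against TSPAN8-low, Lef1 ran between -0.18 and 0.089 and Tcf7 between -0.064 and 0.11. In TSPAN8-high against all ID4-EGFP+, Lrp6 ran between -0.016 and 0.21, Apc between -0.082 and 0.22 and Tcf7 between -0.16 and 0.032. In TSPAN8-low against all ID4-EGFP+, Lrp6 ran between -0.094 and 0.053, Apc between -0.37 and 0.019, Ctnnb1 between -0.087 and 0.15, Lef1 between -0.31 and 0.023 and Tcf7 between -0.17 and 0.085.

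Of the 126 further genes, those higher in TSPAN8-high against TSPAN8-low numbered 5 as reported, 0 without the filter and 0 without it at a pseudocount of 0.1 (chosen after seeing the data), 2 with a minimum of 5 FPKM, 3 under each of the 3 scalings, 11 with the replicate block, and 0 to 5 without libraries. Those lower numbered 0 as reported, 1 at a pseudocount of 0.1, 1 with a common median, 1 with quantile normalization, 4 with the replicate block and 0 to 1 without libraries. In TSPAN8-high against all ID4-EGFP+ the replicate block gave 1 higher and 2 lower, and leaving out libraries 0 to 1 of each. The cause was not tested. The limits of the 95% intervals moved with the pseudocount, and at 0.1 Tcf7l1 ran between 1.08 and 2.47-fold in TSPAN8-high against TSPAN8-low. Over all genes the replicate block called 2131 genes in place of 619 in TSPAN8-high against TSPAN8-low, 344 in place of 16 in TSPAN8-high against all ID4-EGFP+, and 5 in place of 0 in TSPAN8-low against all ID4-EGFP+. FPKM carries no depth, so Lrp5, Shisa6 and Axin2, all under 1 FPKM, have unknown counting error.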
